A study of Mus musculus with 6 samples.

Results

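Complement transcripts were followed as 8 genes: the C1q chain genes C1qa, C1qb and C1qc, the central component C3, the alternative pathway genes Cfb (factor B) and Cfp (properdin), and the receptor genes C3ar1 and C5ar1. They were the 8 rows of a deposited table of 53800 genes that carry these names, and each name occurred once. The libraries came from NCTC 1469, a line derived from mouse liver, with a wild-type genotype and the label hepatocytes. Cultures lasted 6 days and were kept either at rest, as the normal gravity group, or in a random positioning machine, which turns them continually about changing axes. The machine is used as simulated microgravity. Each group had 3 RNA sequencing libraries of polyadenylated transcripts, and none carries a melatonin label although the series title names melatonin. All are samples of 1 line, and nothing in the labels says that replicates were separate cultures, so p-values speak only of the spread among these samples, and that spread may be technical.

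Complement is a protease cascade of plasma that tags particles for uptake by phagocytes. C1q binds antibody complexes and dying cells and starts the classical pathway, while factor B forms the protease of the alternative pathway on C3b, a complex that properdin stabilises. Cleavage of C3 and C5 releases the peptides C3a and C5a, which act on myeloid cells through the receptors encoded by C3ar1 and C5ar1. In the liver, hepatocytes make most of the circulating C3 and factor B, whereas C1q comes mainly from macrophages.

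The normal gravity libraries held 31406875 to 32797684 counts and the others 30474792 to 34318208. The count columns carry the letters C and R, and every direction given here rests on taking R for random positioning and C for control. Replicate 1 of normal gravity stood apart from the other libraries. It correlated with replicates 2 and 3 at r = 0.936 across 14509 genes in log2 CPM, against 0.985 between those 2. CPM is a count scaled to a library of 1000000. With the simulated microgravity libraries replicate 1 correlated at r = 0.943 to 0.946, above its own group, and replicates 2 and 3 did so at 0.964 to 0.970. Results are therefore given with all libraries and without it. Because it was singled out by these same values, p-values without it rest on a spread that this choice may have narrowed. Genes called over the whole table went from 221 with all libraries to 4559 without it. Of 9 hepatocyte markers found in the table, 7 had 0 counts in every library, and the list summed to at most 0.183 CPM. Transferrin, listed under a name the table lacks and looked up afterwards as Trf, stood at 25.5 to 54.0 CPM. Macrophage markers were all detected, and they summed to 6438 to 10489 CPM in the control libraries and 10345 to 11722 CPM in the simulated microgravity ones. Among them Mrc1 reached at most 0.382 CPM in a library, and Aif1 stood at 2.56 to 18.1 CPM. The libraries thus lacked most defining transcripts of hepatocytes and held most of those of macrophages, and the labelled cell type is not used below.

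All 8 genes lie on the minus strand of the mouse assembly GRCm38 and are protein coding. C1qb (chromosome 4, 136880129 to 136886187), C1qc (136889804 to 136893065) and C1qa (136895917 to 136898803) are neighbours. C3 lies at 57203970 to 57228136 and Cfb at 34856374 to 34862518 on chromosome 17. C3ar1 lies on chromosome 6 (122847138 to 122856161), C5ar1 on chromosome 7 (16246743 to 16259540) and Cfp on chromosome X (20925454 to 20931555).

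The upstream sequences of C3, C3ar1 and C5ar1 are shown because these genes cover the most abundant component and both receptors that the results turn on. Each is the 250 bases before the RefSeq start (GRCm38.p6, minus strand), at chr17:57228137-57228386, chr6:122856158-122856407 and chr7:16259339-16259588. Capitals mark matches to any of 6 motifs searched on both strands: PU.1 (GAGGAA), C/EBP (TTNNGNAA), AP-1 (TGANTCA), the TATA box (TATAAA), NF-kB and the interferon response element ISRE.
C3: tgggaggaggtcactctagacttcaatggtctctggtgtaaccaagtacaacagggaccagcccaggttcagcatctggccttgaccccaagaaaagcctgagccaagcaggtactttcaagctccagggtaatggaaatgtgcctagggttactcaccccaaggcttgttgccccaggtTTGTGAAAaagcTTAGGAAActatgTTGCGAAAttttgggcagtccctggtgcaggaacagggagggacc
C3ar1: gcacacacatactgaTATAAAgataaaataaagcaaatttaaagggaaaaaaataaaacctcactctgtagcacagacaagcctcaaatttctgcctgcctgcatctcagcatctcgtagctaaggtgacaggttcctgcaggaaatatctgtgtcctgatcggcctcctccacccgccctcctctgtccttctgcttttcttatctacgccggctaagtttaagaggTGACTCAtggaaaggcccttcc
C5ar1: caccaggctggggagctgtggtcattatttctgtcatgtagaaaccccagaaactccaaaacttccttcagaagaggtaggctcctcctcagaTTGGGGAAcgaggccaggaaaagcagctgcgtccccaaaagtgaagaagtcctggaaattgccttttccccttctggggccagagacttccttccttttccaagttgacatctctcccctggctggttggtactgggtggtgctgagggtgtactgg

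The C3 window held C/EBP matches starting 70, 58 and 45 bases before the start, the last of them readable on both strands. C/EBP letters occurred in 36.8% of 32851 windows of the same length. The C3ar1 window had an AP-1 match 22 to 16 bases before the start, on both strands since the letters are palindromic, and AP-1 letters occurred in 6.75% of windows. It also had a TATA match 235 bases before the start, with TATA letters in 12.4% of windows, far from the usual place of a TATA box. In the C5ar1 window the single match was to C/EBP, 157 bases before the RefSeq start. The listed gene reaches 16259540, inside this window, so the match lies within C5ar1 as annotated and not upstream of it. The shares for the motifs without a match in these 3 windows were 23.3% for PU.1, 7.25% for NF-kB and 2.98% for ISRE. Among windows not shown, that of C1qb held a PU.1 match, and that of C1qc held PU.1, C/EBP and NF-kB matches. The listed C1qc gene reaches 136893065, inside its window of 136892915 to 136893164. Its C/EBP and NF-kB matches therefore lie within C1qc as annotated. A match describes letters only and shows no bound factor.

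Factor B and the C3a receptor gene had higher levels in all 3 simulated microgravity libraries than in any normal gravity library. C3 was the most abundant member in every library, and its highest normal gravity library was 1.18 times the lowest, while C1qa and C1qb had few counts and C1qc stood between 0.739 and 4.27 CPM. Of the 8 members, 6 had enough counts to be tested, and none passed an adjusted p of 0.05 with all libraries in edgeR's quasi-likelihood test. As background, 1.16% of 14509 genes were called higher there and 0.365% lower. With unadjusted p-values under 0.05, C3ar1 and Cfb were higher and no member was lower, against 8.55% and 7.48% of all genes. DESeq2 called the same 2 members higher, where 4.92% of genes were called higher and 3.56% lower. The limma-voom fit called no member, with 1.28% of genes higher and 0.338% lower. Without normal gravity replicate 1, C3ar1 and Cfb rose and C3 fell, while 15.7% of 14809 genes were called higher and 15.1% lower. The median log2 fold change of the 6 tested members was 0.31 with all libraries and 0.16 without that replicate, beside -0.02 and 0.01 over all genes.

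**Figure D1:**
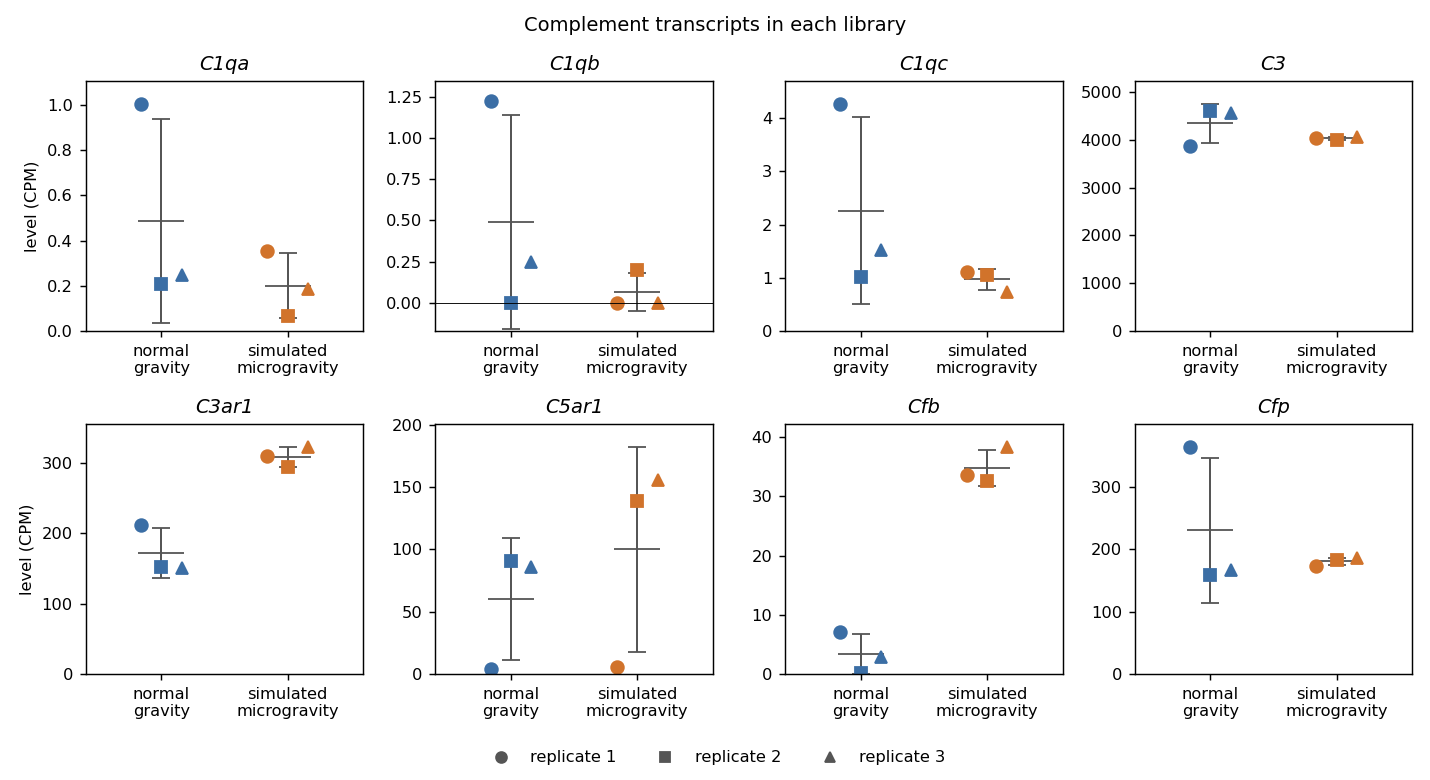
Level of each complement gene in CPM (vertical axes, linear, own scale per gene) in the 6 libraries, with the replicate number given by the symbol and the mean and SD of each group (n = 3) in grey. The groups separate for C3ar1 and Cfb, normal gravity replicate 1 is the highest library for the C1q genes and Cfp, and replicate 1 of both groups is the lowest for C5ar1.

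Set per kilobase of gene length, so that levels can be compared between genes, C3 was first in both groups, at 846.0 ± 78.8 CPM per kilobase (SD, n = 3) at normal gravity and 783.8 ± 6.84 in simulated microgravity. By that measure it ranked between 51 and 97 among all genes of a library. Cfp came next, at 140.5 ± 70.7 and 110.4 ± 3.78 CPM per kilobase, followed by C3ar1 at 39.9 ± 8.18 and 71.6 ± 3.31. C5ar1 stood at 23.8 ± 19.1 and 39.4 ± 32.3 CPM per kilobase. At normal gravity the libraries of C3ar1 and C5ar1 overlapped, as did those of C1qc (1.88 ± 1.46) and Cfb (1.25 ± 1.25). In simulated microgravity Cfb stood at 12.7 ± 1.12 CPM per kilobase and C1qc at 0.808 ± 0.169, without overlap. C1qa and C1qb were the lowest members and overlapped each other in both groups.

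The C1q chains are needed together, since the secreted molecule is built from all 3. C1qc, which encodes the C chain, had 136, 34 and 49 counts in normal gravity replicates 1 to 3 and 38, 32 and 24 counts in simulated microgravity. C1qa (A chain) had 32, 7 and 8 counts against 12, 2 and 6. C1qb (B chain) had 39, 0 and 8 counts against 0, 6 and 0. Normal gravity replicate 1 was the highest library for each chain, and the other 5 libraries overlapped between groups. A count of 0 allows a level of up to 0.0874 to 0.0984 CPM in the libraries of these sizes, counting error only. Summed over the chains, C1q took 6.50, 1.22 and 2.01 CPM at normal gravity and 1.47, 1.32 and 0.924 CPM in simulated microgravity. C1qc alone passed the filter on low counts. Its log2 fold change of simulated microgravity over normal gravity was -1.22 (SE 0.58, adjusted p = 0.377, edgeR), and it was -0.37 (SE 0.33, adjusted p = 0.445) without normal gravity replicate 1. With no filter on low counts, C1qa and C1qb were tested as well and neither passed (adjusted p = 0.597 for both, edgeR), in a fit that called 0.43% of 23734 genes higher and 0.0969% lower.

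In replicate 1 of normal gravity, short genes stood above their level in replicates 2 and 3. The median deviation was 0.47 log2 units over 2705 tested genes of between 1000 and 2000 bases, 0.63 over genes of up to 1000 bases and -0.70 over genes of more than 5000 bases. C1qc, with a length of 1203 bases in the table, deviated by 1.74 log2 units, and Cfp, with 1636 bases, by 1.15. The part of gene length in these values was not tested beyond a fit with the length trend removed, in which C1qc did not pass either (adjusted p = 0.284, edgeR).

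C3, whose cleavage every pathway of complement shares, reached 3878, 4592 and 4566 CPM at normal gravity and 4027, 3990 and 4060 CPM in simulated microgravity. The latter microgravity libraries lay between normal gravity replicate 1 and the other 2, so the groups overlapped. C3 differed by -0.11 log2 units (SE 0.11, adjusted p = 0.690, edgeR). Leaving out normal gravity replicate 1 ended the overlap by itself, since it was the only control below the simulated microgravity libraries. C3 then fell by 0.18 log2 units (SE 0.03, adjusted p = 0.00465, edgeR), where 15.1% of genes were called lower. Its level was 0.879 times that of the 2 remaining controls. A microRNA gene, Mir6978, lies within C3 on the same strand and had 1 count in each library.

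Cfb, which encodes the serine protease of the alternative C3 convertase, had 227, 10 and 93 counts at normal gravity, or 7.12, 0.297 and 2.88 CPM. In simulated microgravity it had 1140, 987 and 1245 counts, or 33.6, 32.6 and 38.3 CPM. Every simulated microgravity library was above every normal gravity library, and the normal gravity libraries differed among themselves by up to 24.0-fold. The log2 fold change was 3.34 (SE 0.89, adjusted p = 0.138, edgeR), from a mean of 3.43 ± 3.45 to 34.8 ± 3.07 CPM (SD, n = 3). Without normal gravity replicate 1, Cfb rose by 4.47 log2 units (SE 0.70, adjusted p = 0.00596, edgeR).

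The lowest Cfb value coincided with counts in a gene that spans it. Gm20547, a protein-coding gene on the same strand (chromosome 17, 34856412 to 34882042), runs from Cfb into C2, the gene of the homologous protease of the classical pathway. It had 71 counts in normal gravity replicate 2 and 0 in the other 5 libraries, and C2 had at most 15 counts in any library. Whether the Gm20547 counts came from Cfb transcripts cannot be told from gene counts and was not tested. Adding the counts of both genes, a choice made after seeing the data, gave 227, 81 and 93 counts at normal gravity against the same 1140, 987 and 1245. The summed level went from 4.14 ± 2.60 to 34.8 ± 3.07 CPM (SD, n = 3). It rose by 3.07 log2 units with all libraries (SE 0.43, adjusted p = 0.0320, edgeR) and by 3.72 without normal gravity replicate 1 (SE 0.14, adjusted p = 7.82e-05).

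**Figure D2:**
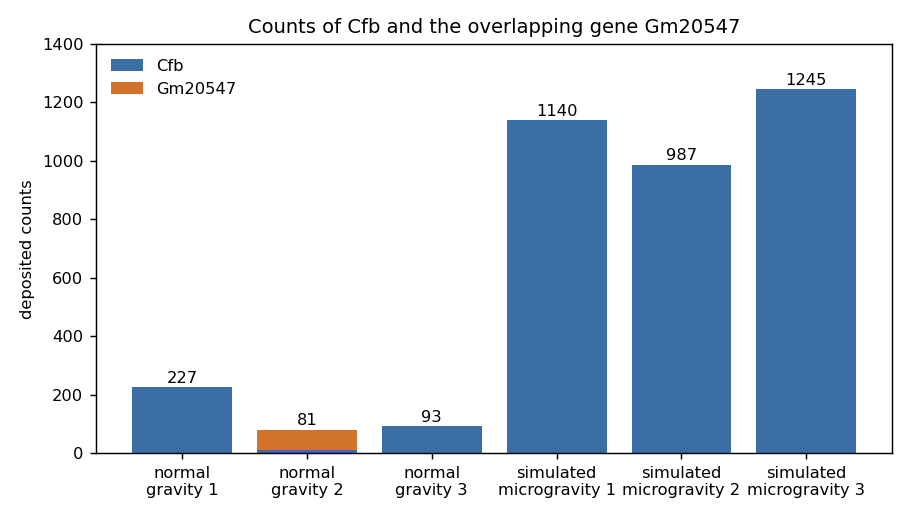
Deposited counts of Cfb and of the overlapping gene Gm20547, stacked, in each library, with their sum above the bar. Normal gravity replicate 2 is the library with Gm20547 counts, and its sum of 81 lies near the 93 of replicate 3.

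Cfp encodes properdin, a secreted protein of myeloid cells that stabilises the convertase. It stood at 363.4, 159.6 and 166.9 CPM at normal gravity and at 173.6, 182.5 and 185.5 CPM in simulated microgravity. Normal gravity replicate 1 was about 2.28 times the lowest of its group, and the simulated microgravity libraries lay between it and the other 2. The log2 fold change was -0.35 (SE 0.33, adjusted p = 0.680, edgeR), and it had the opposite sign without that replicate, at 0.15 (SE 0.05, adjusted p = 0.0647). In neither comparison did Cfp pass.

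C3ar1, the C3a receptor gene, stood at 212.4, 151.5 and 151.3 CPM at normal gravity and at 309.1, 293.3 and 321.7 CPM in simulated microgravity. The groups did not overlap, and normal gravity replicate 1 was the control nearest to them. The log2 fold change of C3ar1 was 0.84 (SE 0.16, adjusted p = 0.0675, edgeR), a ratio of means of 1.79. Without normal gravity replicate 1 it rose by 1.03 log2 units (SE 0.05, adjusted p = 0.000179, edgeR). Groups that do not overlap were found for 14.4% of all tested genes in the higher direction and for 12.9% in the lower, so 2 members of 6 with higher levels stand beside that share.

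Macrophage markers moved in the same direction in part. With all libraries 1 of 11 tested markers was higher and none lower, where 1.16% of all genes were higher. Once normal gravity replicate 1 was left out, 7 of 12 were higher and none lower, where 15.7% of all genes were higher. Mpeg1, which encodes the macrophage pore protein perforin-2, rose by 0.99 log2 units with all libraries (adjusted p = 0.0401, edgeR). Csf1r, the receptor gene for macrophage colony stimulating factor, stood at 0.20 (adjusted p = 0.326) and rose without that replicate (0.19, adjusted p = 0.00492). With all libraries Marco (2.61), Lyz2 (1.04), Ptprc (0.68) and Cd68 (0.45) were also above 0. Aif1 (-0.83), Cd14 (-0.25), Fcgr1 (-0.14), Spi1 (-0.09) and Adgre1 (-0.08) were below, and none of these passed. The macrophage sums overlapped between the groups. Lyz2 took 3928, 969.1 and 1022 CPM of them at normal gravity and 3901, 3516 and 4558 CPM in simulated microgravity. Sums of the endothelial and neutrophil lists did separate the groups, each mostly through 1 gene. The endothelial list summed to 22.1 to 24.7 CPM at normal gravity and 50.1 to 61.8 CPM in simulated microgravity. Of this, Vwf, the von Willebrand factor gene, took 15.1 to 18.0 and 42.1 to 55.7 CPM. Vwf was the 1 of 5 tested genes that rose (1.62, adjusted p = 0.00886, edgeR). Kdr (2.28) and Lyve1 (0.19) stood above 0, Pecam1 (-0.45) and Cdh5 (-1.04) below, and none of these passed. Of that list Stab2 had 0 counts in all libraries. The neutrophil list summed to 10.5 to 41.6 against 66.4 to 76.1 CPM, nearly all of it S100a8 (1.76, adjusted p = 0.207, edgeR), with Mpo at 0 counts in all libraries. Of 3 tested fibroblast and stellate cell markers, Pdgfrb, a growth factor receptor gene, rose (1.36, adjusted p = 0.0396, edgeR), and that list's sums overlapped, at 8.63 to 13.5 and 11.6 to 14.1 CPM. In bulk RNA a change in the number of cells of a type and a change in RNA per cell cannot be told apart. Whether these markers account for the difference in C3ar1 or Cfb was not tested.

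C5ar1, the C5a receptor gene, had 139 counts in normal gravity replicate 1 and 3052 and 2780 in replicates 2 and 3. In simulated microgravity it had 199 counts in replicate 1 and 4205 and 5042 in the other 2. As levels these were 4.36, 90.6 and 86.0 CPM against 5.86, 139.0 and 155.3 CPM. The libraries numbered 1 of both groups were low, and the groups overlapped. The log2 fold change with all libraries was 0.73 (SE 1.30, adjusted p = 0.846, edgeR), so these libraries could not show a difference of that size.

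The deviation of C5ar1 was unusual among genes with a mean of at least 5 CPM. Relative to the mean of replicates 2 and 3, replicate 1 stood at -4.32 log2 units at normal gravity and at -4.63 in simulated microgravity. Of 10500 genes with a mean of at least 5 CPM, 20 (0.190%) were more than 1 log2 unit lower in both libraries numbered 1, and 5 were more than 3 lower. C5ar1 had rank 3 by the smaller of its 2 deviations. Across genes the same-numbered libraries did not deviate together, at r = -0.07, 0.02 and -0.09 for numbers 1 to 3. Without both libraries numbered 1, a comparison of 2 against 2 chosen after seeing the data, C5ar1 rose by 0.74 log2 units (SE 0.08, adjusted p = 0.00541, edgeR), where 12.8% of genes were called higher and 12.2% lower. C3ar1 at 1.02 and Cfb at 4.49 rose and C3 at -0.18 fell in that comparison too. No gene of the table overlaps C5ar1. C5ar2, the neighbouring gene of the second C5a receptor, named here after its values were seen, had 2, 0 and 50 counts at normal gravity and 52, 0 and 62 in simulated microgravity, a different order of libraries.

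**Figure D3:**
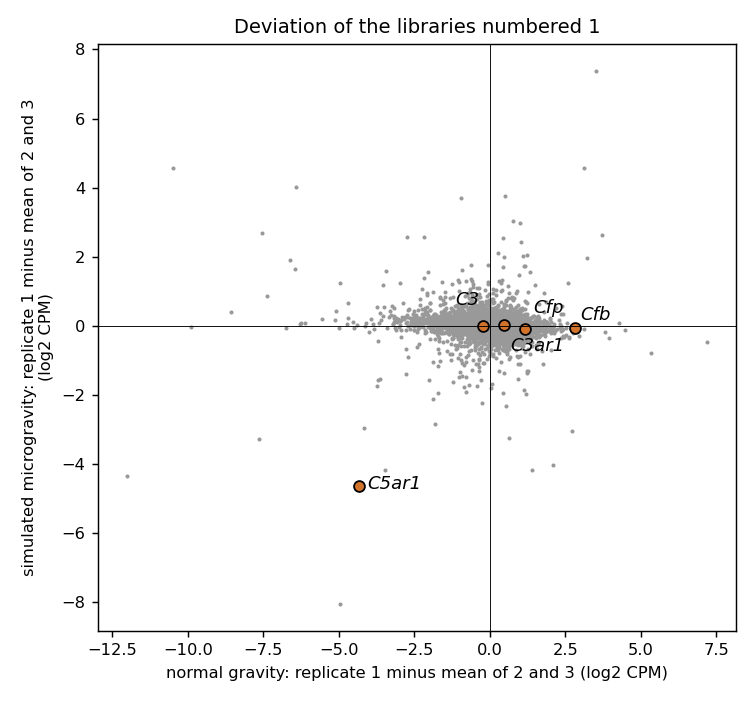
Deviation of replicate 1 from the mean of replicates 2 and 3 in log2 CPM, at normal gravity (horizontal) and in simulated microgravity (vertical), for 10500 genes with a mean of at least 5 CPM (grey), with the complement members of that level in orange. C5ar1 lies at -4.32 and -4.63, away from the other members, whose vertical deviations are near 0.

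**Figure D4:**
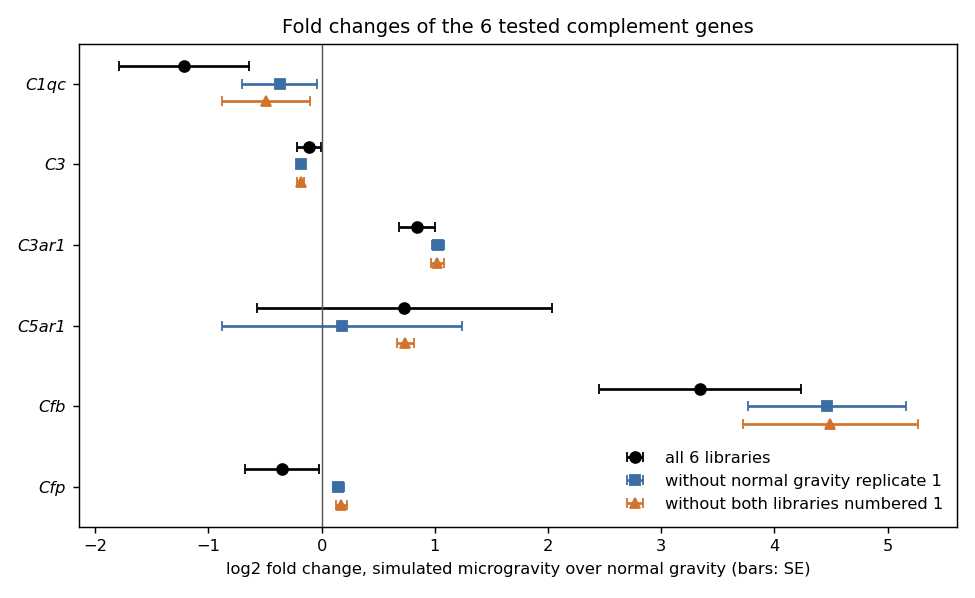
Log2 fold change of simulated microgravity over normal gravity with its SE for the 6 tested members, from all libraries, without normal gravity replicate 1 and without both libraries numbered 1. C3ar1 and Cfb lie above 0 in all 3 comparisons, Cfp changes sign, and the error of C5ar1 shrinks when both libraries numbered 1 are left out.

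The genes nearest in pattern to each member were found by the root mean square difference between centred log2 CPM profiles over the 6 libraries, among 9573 genes. Nearest to C3ar1 were Fam20c at 0.033 log2 units, Vat1 at 0.041 and Anxa1 at 0.041. The profile of C3 was closest to that of Abcf1 (0.017), Eif2b1 (0.023) and Bahd1 (0.024), and that of Cfp to Ifitm3 (0.028), Fcer1g (0.031) and Rps29 (0.036). The genes closest to Cfb were farther off, with Stfa3 (0.95), Fpr1 (1.01) and Rgcc (1.02). That search used Cfb alone, at 0.297 CPM in normal gravity replicate 2, where Gm20547 had its counts. Genes near the summed profile of Cfb and Gm20547 were not searched for, so these distances may be too large. C5ar1 was matched best by Zfp180 (0.57), which stood at 0.942 and 2.74 CPM in the libraries numbered 1 and at 17.4 to 22.9 CPM in the others, then by Glcci1 (1.04) and Zfp959 (1.06). For the mean of the C1q genes the nearest were Ccl24 (0.37), Abi2 (0.38), Fdps (0.41), Ifi27l2a (0.42) and Limd2 (0.42), each with its highest level in normal gravity replicate 1.

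Other genes of the complement system formed 49 rows of the table, of which 25 were tested. With all libraries 2 rose and none fell, beside the background of 1.16% and 0.365%, and the median log2 fold change was 0.17. By unadjusted p-values under 0.05, 3 were higher and 3 lower, beside 8.55% and 7.48% of all genes. DESeq2 called 3 higher and 3 lower, beside 4.92% and 3.56%. Without normal gravity replicate 1, 8 rose and 4 fell, beside 15.7% and 15.1% of all genes, with a median of 0.25. Much of the cascade was not detected: for 19 genes no library had a count, and 0 of 194666094 counts leaves room for up to 0.0154 CPM. They include Cfd, the factor D protease that cleaves factor B, Hc, which encodes C5, the terminal genes C6, C7, C8a and C8b, the mannose-binding lectin genes Mbl1 and Mbl2, and Cfi, the factor I protease that inactivates C3b.

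The 2 that rose with all libraries encode receptors. Cd93, a lectin-like membrane protein first described as a C1q receptor, stood at 8.47, 7.90 and 7.34 CPM at normal gravity and at 28.5, 25.6 and 33.9 CPM in simulated microgravity, and rose by 1.89 log2 units (SE 0.15, adjusted p = 0.0066, edgeR). Itgb2, the beta 2 chain of the leukocyte integrins, went from 493.1, 538.5 and 518.8 to 830.2, 822.3 and 867.5 CPM and rose by 0.70 (SE 0.09, adjusted p = 0.0267). Neither had overlapping groups, and both also rose without normal gravity replicate 1, by 1.95 and 0.67 log2 units. These calls did not hold when another library was left out: the count of 2 became 1 without simulated microgravity replicate 2 and 0 without normal gravity replicate 2 or 3 or simulated microgravity replicate 1 or 3, where 3 to 24 genes of the whole table were called.

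The alpha chains that pair with Itgb2 to bind C3 fragments differed in sign. Itgam is listed in 2 overlapping rows on the same strand, and reads were divided unevenly between them: 5293 and 4888 counts in normal gravity replicate 1, but 6213 and 26326 in simulated microgravity replicate 1. Their sum, taken after seeing the data, was 319.6, 514.9 and 526.8 CPM at normal gravity and 957.8, 924.9 and 967.2 CPM in simulated microgravity, without overlap. The sum differed by 1.07 log2 units (SE 0.20, adjusted p = 0.0654, edgeR), and 0.87 (SE 0.04, adjusted p = 0.000103) without normal gravity replicate 1. Itgax stood at 19.7, 21.6 and 21.7 CPM at normal gravity and at 14.2, 11.8 and 14.9 CPM in simulated microgravity. It differed by -0.63 log2 units (SE 0.14, adjusted p = 0.0920, edgeR) and fell without that replicate (-0.67, adjusted p = 0.00873).

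Among genes that start the classical and lectin pathways, none of 10 tested passed with all libraries. The protease genes C1ra, C1rb, C1s1 and C1s2 had log2 fold changes of 0.38, 0.40, 0.27 and 0.11 (adjusted p = 0.470 to 0.856). Without normal gravity replicate 1 they rose by 0.65, 0.83, 0.81 and 0.34 (adjusted p = 0.00402 to 0.0442). C1ra and C1rb, and likewise C1s1 and C1s2, are close copies, and the counting could have divided their reads. Fcna, which encodes the lectin ficolin A, stood at 90.9, 37.7 and 36.3 CPM at normal gravity and at 70.9 to 77.3 CPM in simulated microgravity. Fcna differed by 0.44 log2 units (adjusted p = 0.636, edgeR), and it rose by 1.01 without replicate 1 (adjusted p = 0.000329). In the collectin gene Colec12 the values were 0.06 with all libraries and -0.07 without that replicate, and neither passed.

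Of 5 tested regulators of the cascade, none passed with all libraries and 1 fell without normal gravity replicate 1. That gene, Clu, whose product clusterin blocks the terminal complex, stood at 800.0, 587.9 and 558.7 CPM at normal gravity and at 344.9, 357.9 and 362.8 CPM in simulated microgravity, without overlap. The log2 fold change of Clu was -0.87 (SE 0.16, adjusted p = 0.0599, edgeR), and it fell without normal gravity replicate 1 (-0.69, adjusted p = 0.000284). Cr1l, the rodent membrane regulator of C3 convertases, differed by 0.09 (adjusted p = 0.825), and Cd59a, an inhibitor of the membrane attack complex, by 0.94 (adjusted p = 0.397). Neither passed without that replicate. C1qbp, which encodes a mitochondrial protein that binds C1q, stood at -0.41 (adjusted p = 0.132) and fell without it (-0.34, adjusted p = 0.00437). Calr differed by -0.05 (adjusted p = 0.891) and did not pass without it. Lrp1, a scavenger receptor gene of 14888 bases, was at 775.6 CPM in normal gravity replicate 1 and at 2027 to 2491 CPM elsewhere. Its log2 fold change was 0.16 (adjusted p = 0.903), and it was -0.21 (adjusted p = 0.0165) without that replicate.

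**Figure D5:**
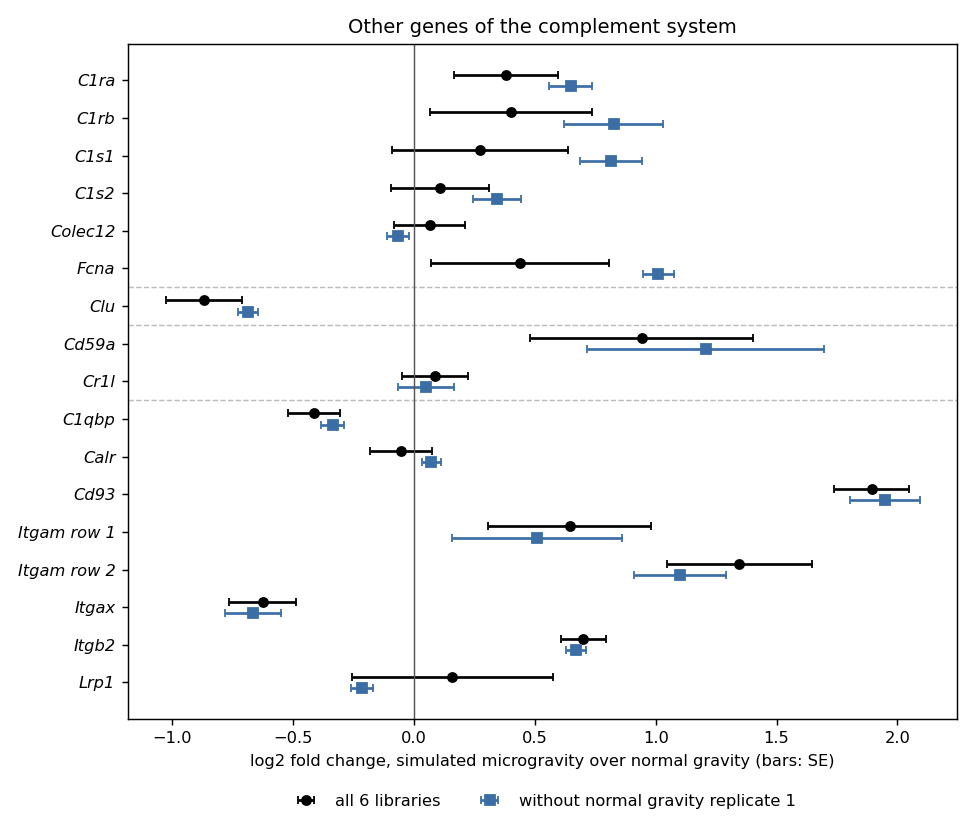
Log2 fold change of simulated microgravity over normal gravity with its SE for 17 rows of other complement genes, with all libraries and without normal gravity replicate 1. Dashed lines separate pathway starters, fluid phase regulators, membrane bound regulators and receptors, and Cd93 lies farthest to the right in both comparisons.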

How the data were processed

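Per the labels' protocols, cells grew in DMEM with 10% serum at 37 degrees and 5% CO2, and 1 µg of RNA went into each mRNA library. The submitters' processing notes name HISAT2 2.1.0 and fastp 2.0. How reads were counted, whether by strand, and on which build and annotation is not given in the sources used here. Values were deposited by the authors as whole-number counts per gene, not normalized. Of 53705 genes shared with GENCODE M21 (GRCm38), 97.1% had the same start and end. Of 53801 lines, 1 names no gene and was left out.

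Tests used edgeR 4.0.16 under R 4.3.3 (filterByExpr, TMM, quasi-likelihood test, two-sided, Benjamini-Hochberg over all tested genes, threshold 0.05). SE is the log2 fold change over the root of F. CPM are TMM-scaled, except marker sums, which use all counts. Log2 CPM for patterns used a prior count of 2. Alternatives used DESeq2 1.42.0, limma-voom (limma 3.58.1), other scalings and filters, a replicate block, a gene length trend and each library left out. Limits for 0 counts use 3 counts.

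The members and gene lists were chosen with earlier results of these data known. The naming rule took all members, wider complement genes past the threshold with or without normal gravity replicate 1 or with a mean of at least 5 CPM, and the nearest 5 (C1q) or 3 genes in pattern, among named genes at that level. Marker lists not described above summed, at normal gravity and in simulated microgravity, to 112.1 to 162.7 and 132.7 to 142.1 CPM (Kupffer cell), 0.124 to 0.457 and 0 to 0.361 CPM (cholangiocyte), and 0 and 0.0984 to 0.300 CPM (lymphocyte). Nearly all of the Kupffer cell sum was Id3, at 104.5 to 152.5 CPM, while Clec4f and Timd4 reached at most 0.061 and 0.0984 CPM in a library. The result of 1 wider gene is not reported here. The procedure was tested on simulated data that held no outlying library and no gene length trend, so that test does not cover these features. Promoter sequences are RefSeq's, found for 6 of 8 members but not for Cfb or C1qa.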

Additional observations from a re-analysis of the deposited data

How the results depend on the processing

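The number of genes called over the whole table, 221, was 1230 with DESeq2, 696 with the gene length trend removed, 125 with no filter on low counts, 0 with the replicate block and 3641 without both libraries numbered 1, and ran from 3 to 4559 when each library was left out. Members called higher, 0 with all libraries, were 2 with DESeq2 and 3 without both libraries numbered 1, and 0 to 2 with each library left out. Members called lower were 0, then 1 without both libraries numbered 1, and 0 to 1 with each left out. Of the wider genes, 2 higher became 0 with the replicate block, 7 without both libraries numbered 1 and 0 to 8 with each left out, and 0 lower became 3 with DESeq2, 2 with the length trend removed, 1 with library size alone, 4 without both libraries numbered 1 and 0 to 4 with each left out.

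C3ar1 was called in DESeq2 at 0.84 (adjusted p = 0.000196) and without both libraries numbered 1 at 1.02, and ran from 0.76 to 1.03 with each library left out. Cfb was called in DESeq2 at 3.35 (adjusted p = 0.000772), without both libraries numbered 1 at 4.49, and with Gm20547 added at 3.07 and 3.72, and ran from 2.80 to 4.47. C5ar1 was called at 0.74 without both libraries numbered 1 and ran from 0.18 to 1.29. C3 was called at -0.18 without both libraries numbered 1 and ran from -0.18 to -0.070. Cfp reversed to 0.15 without normal gravity replicate 1, the highest of a range from -0.56, and to 0.17 without both libraries numbered 1. The cause was not tested. The replicate block gave C3ar1 0.86 (adjusted p = 0.255), Cfb 3.95 (0.296) and C5ar1 0.64 (0.326). Deviations of same-numbered libraries correlated at -0.07, 0.02 and -0.09, so the numbers were not taken to pair samples. C3ar1 (1.03), Cfb (4.47) and C3 (-0.18) were also called without normal gravity replicate 1. The other settings run, C1qc included, left the direction and call of the 6 tested members as with all libraries. Depth limits C1qa and C1qb, with at most 39 counts in a library.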
